A study of Mus musculus with 2 samples.

Results

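Gamma-delta T cells are the T cells whose antigen receptor pairs a gamma with a delta chain, and here they were 100 cell barcodes of the 28280 that passed quality limits in lungs of tumour-bearing mice. They were chosen by measured counts of unique molecular identifiers (UMIs), each UMI being 1 captured RNA molecule. A member had at least 2 UMIs summed over Cd3e, Cd3d and Cd3g, the signalling chains shared by all T cells, and at least 1 UMI of Trdc, the delta constant gene. It had no UMI of Ncr1, Cd4, Cd8a, Cd8b1, Foxp3, Cd79a or C1qa, which mark natural killer (NK), other T, B and macrophage cells. Its S100a8 and S100a9 UMIs, RNA typical of neutrophils, were under 3% of its total.

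The lungs came from female BALB/c mice carrying the osteosarcoma line K7M2 as an orthotopic graft. One group received 1V209-Cho-Lip, a liposome that carries a TLR7 agonist, and the other received PBS. The series' design text has the lungs of 3 mice pooled in each group, while the sample titles speak of a mouse in the singular. Each group gave 1 library on the 10x Genomics platform, so no test was made. All ratios are 1V209-Cho-Lip over PBS, and in each of them the effect of treatment and the difference between the libraries cannot be told apart. Intervals are 95% and cover counting error only. The labels give no dose, no time after treatment and no age of the mice.

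Many mouse lung gamma-delta T cells are made before birth or early in life, settle in the tissue and release interleukin 17 soon after signals from interleukins 1 and 23. The transcription factor Sox13, the scavenger receptors Scart1 and Scart2 and the kinase Blk are known from such cells. Another kind makes interferon gamma and carries cytotoxic and natural killer receptor genes. Lineages differ in the V segments that are joined into the receptor, and a pairing of Trgv6 with Trdv4 is known from a lineage that resides in tissues.

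V segments divided the members in the results that follow, so the germline ends of the most telling ones are shown, from GENCODE vM21 on GRCm38 (mm10). Each is the last 75 bases of the V exon, and the capitals mark the codon of the conserved cysteine at which the third hypervariable loop begins.
Trgv6: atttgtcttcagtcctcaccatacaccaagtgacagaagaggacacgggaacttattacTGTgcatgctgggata
Trdv4: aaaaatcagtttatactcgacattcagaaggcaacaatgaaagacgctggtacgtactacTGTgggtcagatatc
Trgv4: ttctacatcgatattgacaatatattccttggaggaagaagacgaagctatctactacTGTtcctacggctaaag
Trdv5: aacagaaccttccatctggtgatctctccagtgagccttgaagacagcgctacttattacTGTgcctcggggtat
The gamma segments lie on the plus strand of chromosome 13, Trgv6 at chr13:19190855-19190929 and Trgv4 at chr13:19185432-19185506. Trdv4 lies on the plus strand at chr14:54075441-54075515 and Trdv5 on the minus strand at chr14:54148662-54148736. Over their transcripts Trdv4 and Trdv5 shared 60.5% of aligned bases, and Trgv4 and Trgv6 shared 59.6%. The other gamma segments are less distinct: Trgv1, Trgv2 and Trgv3 shared 94.6% to 95.7%, and the constant genes Trgc1, Trgc2 and Trgc3 shared 96.0% to 97.3%. Counts within those sets are therefore uncertain.

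The 1V209-Cho-Lip library gave 25 members of 13720 kept barcodes and the PBS library 75 of 14560. Their summed RNA was 103845 and 283757 UMIs, with a median of 3417 and 3190 UMIs and 1503 and 1402 genes per member. The libraries had 268 barcode sequences in common, and 1 member in each library carried one of them, though none was a member in both. Scrublet, a doublet caller, marked 1 and 9 members, which were kept.

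Few cells stood well clear of the Trdc minimum. Members with exactly 1 Trdc UMI numbered 12 of 25 and 39 of 75, those with 2 numbered 9 and 21, and those with 3 or more numbered 4 and 15. At the CD3 minimum of 2 UMIs stood 1 and 2 members, and 1 and 3 further barcodes met every limit but had 1 CD3 UMI. Barcodes with CD3 and Trdc UMIs numbered 41 and 142 before the 7 excluded genes were applied, and Cd4 alone was found in 8 and 25 of those.

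Summed over members, the marker genes were far above their level in Cd4 T cells in both libraries. Trgc1, a gamma constant gene, stood at 260 CPM (UMIs scaled to a common total) with 1V209-Cho-Lip and 152 CPM with PBS, against 2.03 and 0.201 CPM in Cd4 T cells. Scart1 stood at 1223 and 666 CPM, against 0.406 and 3.21 CPM in Cd4 T cells. Scart2 was at 337 and 409 CPM, against 1.62 and 1.81 CPM there. Blk was at 299 and 349 CPM, against 4.47 and 7.23 CPM there, and B cells, which are known to express it, were at 145 and 147 CPM. The smallest of these ratios of members to Cd4 T cells was 48.3, for Blk with PBS, and the Cd4 T levels of Trgc1 and Scart1 rest on few UMIs. Cd4 T cells were the 487 and 999 barcodes with 2 CD3 UMIs, a Cd4 UMI and no Trdc. These sums came mostly from members with a UMI of the delta segment Trdv4 or Trdv5. In the 5 and 22 members with neither, Trgc1 was found in 0 and 2, Blk in 1 and 5 and Scart1 in 0 and 2. The gamma constant genes Trgc2 and Trgc4 were found in 1 and 2 and in 0 and 5 of them. Trac, Trbc1 or Trbc2 was found in 4 and 9 of them. The same chains were found in 8 of 11 and 14 of 29 Trdv4 cells, and in 6 of 9 and 12 of 24 Trdv5 cells. Any gamma or delta V segment was found in 23 of 25 and 64 of 75 members, Trdv4 or Trdv5 in 20 and 53. Some members with neither thus carried another V segment. Trgc1, Blk and Scart1 gave little support to the name for the members with neither.

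**Figure D1:**
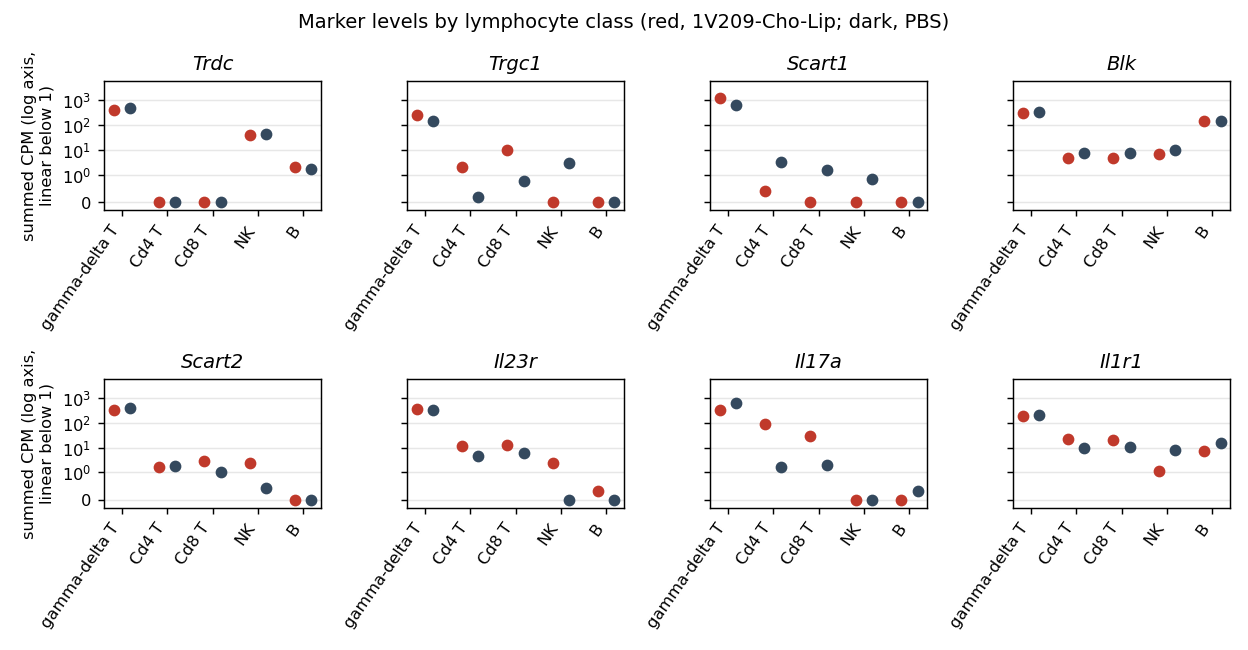
Summed CPM (log axis, linear below 1) of 8 genes in 5 lymphocyte classes, with 1V209-Cho-Lip in red and PBS in dark. Scart1, Scart2, Trgc1 and Il23r were far higher in gamma-delta T cells than in the other classes in both libraries, while Blk was also found in B cells and Trdc in NK cells.

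Receptor RNA was also counted in other classes. Trdc was found in 0.769% of B cells with 1V209-Cho-Lip and 0.520% with PBS, at median depths of 2606.5 and 2183 UMIs. It was found in 14.5% and 12.9% of NK cells, and the delta segment Trdv4 in 5.81% and 3.74% of them. A UMI of the alpha-beta receptor genes Trac, Trbc1 or Trbc2 was found in 18 of 25 members (72.0%, 50.6 to 87.9%) and 35 of 75 (46.7%, 35.0 to 58.6%). The same genes were found in 1.15% and 0.982% of B cells and in 76.2% and 66.6% of Cd4 T cells. Thinned to 1000 UMIs per cell, the member shares were 28.0% and 17.3%. Summed over the 3 genes, their level was 279 and 215 CPM in members and 401 and 297 CPM in Cd4 T cells. Trbc1 by itself stood at 125 and 81.1 CPM in members and at 95.8 and 62.5 CPM in Cd4 T cells. S100a8 was found in 12 of 25 members (48.0%) and 6 of 75 (8.0%), and in 52.8% and 10.9% of Cd4 T cells. Neutrophil RNA was thus found in members about as often as in Cd4 T cells, and more often in the 1V209-Cho-Lip library. Its part in the gene ratios was not tested.

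Gamma-delta T cells made up a smaller share of the 1V209-Cho-Lip library. They were 0.182% (0.118 to 0.269%) of its kept barcodes and 0.515% (0.405 to 0.645%) of the PBS barcodes, a ratio of 0.354 (0.215 to 0.563). Among barcodes under the S100a8 and S100a9 limit, which leaves out most neutrophils, the shares were 0.285% and 0.579%, a ratio of 0.492 (0.300 to 0.783). The interval of this second ratio held 1 with members of at least 2 Trdc UMIs, at 0.533 (0.259 to 1.03), and with each barcode thinned to 1000 UMIs, at 0.511 (0.241 to 1.01). Among barcodes with 2 CD3 UMIs they were 1.87% and 2.43%, a ratio of 0.769 (0.469 to 1.22). The interval of that last ratio held 1, so no difference within the T-cell barcodes was detectable at this depth. With members that had no Trac, Trbc1 or Trbc2 UMI, 7 and 40 cells, it was 0.404 (0.153 to 0.911).

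Delta segments divided most of the members. Trdv4 was found in 11 of 25 members (44.0%, 24.4 to 65.1%) with 1V209-Cho-Lip and 29 of 75 (38.7%, 27.6 to 50.6%) with PBS. Trdv5 was found in 9 (36%, 18 to 57.5%) and 24 (32.0%, 21.7 to 43.8%). No member carried both, and 5 (20%) and 22 (29.3%) carried neither. No difference between the libraries was detectable in the shares of the 3 groups. Each interval held the other library's value, and those of the 25 treated members were wide.

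The gamma segment Trgv6 lay with Trdv4, whereas Trgv4 and Trgv2 were found in both segment groups. All 10 members with Trgv6 in the 1V209-Cho-Lip library and all 25 in the PBS library had Trdv4. Trgv6 was found in none of the 9 and 24 Trdv5 cells, which allows shares of cells with a UMI of up to 33.3% and 12.5% (3 counts of the cells). Trgv4 was found in 3 and 9 Trdv5 cells and in 1 and 4 Trdv4 cells. Trgv2 was found in 4 and 11 Trdv5 cells and in 4 and 5 Trdv4 cells, and its reads cannot be told apart well from those of Trgv1 and Trgv3.

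The scavenger receptors parted with the segments whose ends are printed above. Scart1 was found in 11 of 11 and 26 of 29 Trdv4 cells, but in 4 of 9 and 1 of 24 Trdv5 cells. Its summed level was 2239 and 1603 CPM in Trdv4 cells and 757 and 50.3 CPM in Trdv5 cells. Scart2 showed the reverse, in 0 of 11 and 1 of 29 Trdv4 cells and in 7 of 9 and 22 of 24 Trdv5 cells. Its summed level was 0 and 64.5 CPM in Trdv4 cells and 1041 and 986 CPM in Trdv5 cells. The Scart2 intervals of the segment groups did not overlap in either library, and those of Scart1 did not overlap with PBS.

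Pdcd1, which encodes the inhibitory receptor PD-1, was mostly a gene of the Trdv4 cells. It was found in 11 of 11 and 19 of 29 of them, at 1087 and 654 CPM, and in 3 of 9 and 3 of 24 Trdv5 cells, at 189 and 70.4 CPM. Trgc1 stood at 522 and 313 CPM in Trdv4 cells and at 94.6 and 70.4 CPM in Trdv5 cells. The adaptor Clnk was found in 8 of 11 and 14 of 29 Trdv4 cells and in no Trdv5 cell. The keratin gene Krt83 was found in 7 and 11 Trdv4 cells and in 1 and 2 Trdv5 cells. Ltb4r1, the receptor for leukotriene B4, was found in 5 and 16 Trdv4 cells and in 0 and 2 Trdv5 cells. These genes were picked after their values were seen.

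Interleukin 17 genes were found in a larger share of the Trdv5 cells in both libraries, with intervals that overlapped those of the Trdv4 cells. Such overlap does not settle whether the shares differ. Il17a was found in 3 of 11 and 11 of 29 Trdv4 cells and in 5 of 9 and 15 of 24 Trdv5 cells, and the intervals of the segment groups overlapped in both libraries. Il17f was found in 3 and 5 Trdv5 cells, in 0 of 11 and 0 of 29 Trdv4 cells, and in 1 PBS member with neither segment. The zero counts in Trdv4 cells allow shares of cells with a UMI of up to 27.3% and 10.3%, and the Il17f intervals of the segment groups overlapped in both libraries. Tcf7, a factor of naive and memory T cells, was found in 4 of 11 and 5 of 29 Trdv4 cells and in 5 of 9 and 15 of 24 Trdv5 cells. With PBS its intervals, 5.85 to 35.8% and 40.6 to 81.2%, did not overlap, while with 1V209-Cho-Lip they did.

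**Figure D2:**
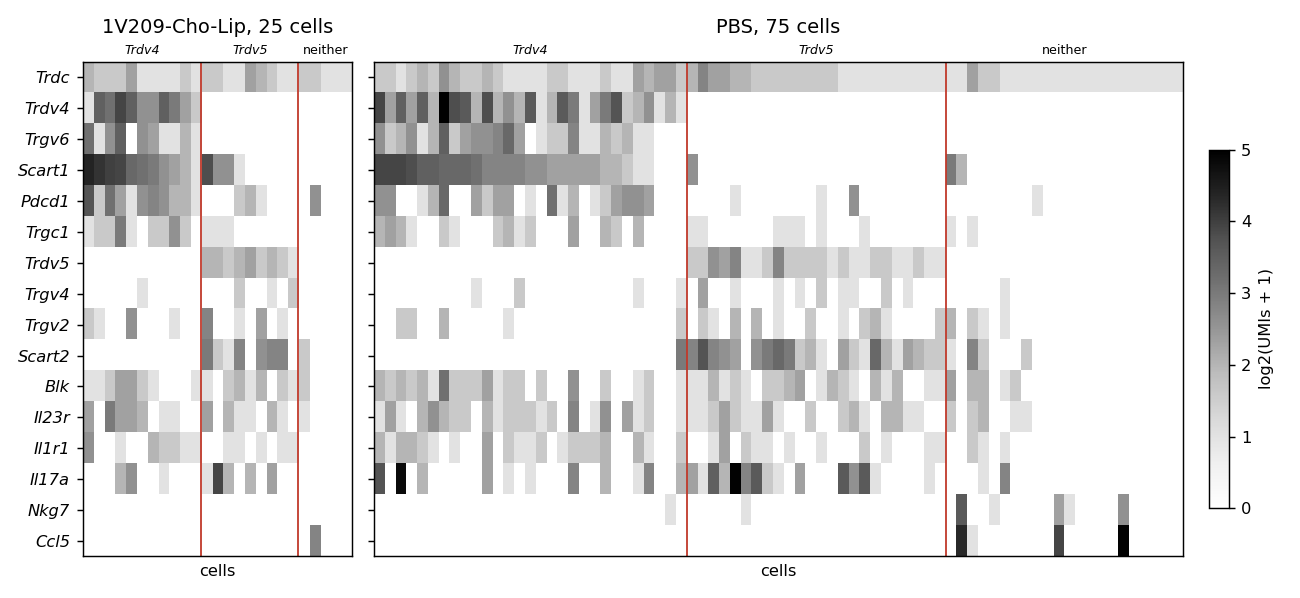
UMIs per member, as log2(UMIs + 1), for 16 genes (rows) in the 25 and 75 members (columns), grouped by delta segment between the red lines. Trgv6 and most Scart1 UMIs lay with Trdv4, Scart2 with Trdv5, and Nkg7 and Ccl5 mostly in cells with neither.

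Members with neither segment had Blk and Il23r, the interleukin 23 receptor, in 1 of 5 and 5 of 22 cells each. With PBS that interval (7.82 to 45.4%) lay below those of both segment groups, of which the lowest bounds were 49.2% for Blk and 48.9% for Il23r. Scart1 was found in 0 and 2 of them, close to its count in PBS Trdv5 cells, and Scart2 in 1 and 4. The chemokine gene Ccl5 was found in 1 of 5 and 4 of 22, and in no member with Trdv4 or Trdv5. Nkg7, a granule gene, was found in 5 of the 22 PBS cells and in 2 of the 53 PBS cells with either segment. Ccr7, which guides naive cells to lymph nodes, was found in 2 of 5 and 8 of 22 members with neither segment. It was found in 0 of 11 and 2 of 29 Trdv4 cells and in 1 of 9 and 1 of 24 Trdv5 cells. With PBS its summed level was 501 CPM in members with neither segment, 18.4 CPM in Trdv4 cells and 10.1 CPM in Trdv5 cells. The PBS intervals of Ccl5, Nkg7 and Ccr7 overlapped those of the segment groups, and 5 treated cells allow no such comparison.

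**Figure D3:**
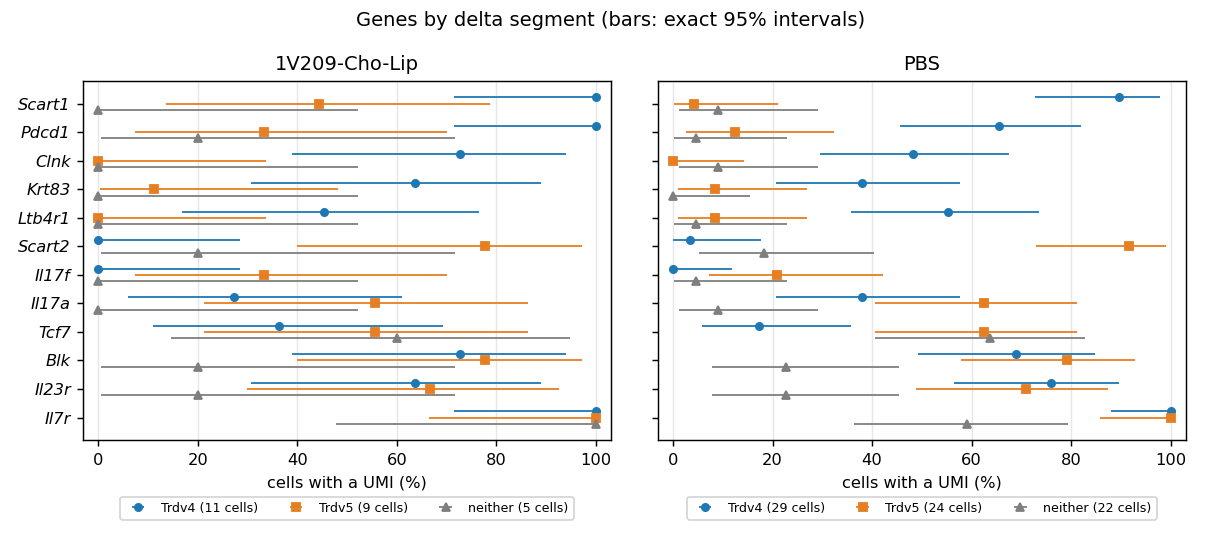
Percent of cells with a UMI of each of 12 genes, by delta segment, with exact 95% intervals and 1 panel per library. Scart1 and Pdcd1 were found mostly in Trdv4 cells and Scart2 in Trdv5 cells, whereas the Blk and Il23r intervals of the segment groups overlapped.

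A set of 14 type-1 and cytotoxic genes was found in 18 of 25 members (72.0%, 50.6 to 87.9%) and 49 of 75 (65.3%, 53.5 to 76.0%), but mostly at low counts. Of the positive members 10 and 30 had only 1 or 2 UMIs. NK cells had the set in 98.8% and 98.1%, and B cells in 18.3% and 21.8%, or 143 of 780 and 378 of 1731 cells. Ly6c2, a gene of the set, was by itself found in 125 and 260 of these B cells, so they are not a clean background for the set. The granule gene Nkg7 was found in 8 and 48 B cells. Among members Klrk1, also of the set, was found in 12 of 25 and 23 of 75, and Ly6c2 in 2 and 15. With each cell thinned to 1000 UMIs, detection of the set was 40.0% in both libraries. The intervals of the shares overlapped, while the summed level was 616 and 828 CPM, a ratio of 0.744 (0.555 to 0.985). Of the 64 and 235 UMIs in these sums, 6 and 64 were of Ccl5, from 1 and 4 members with neither delta segment. A single PBS cell held 48 UMIs of the set, so the ratio depends on few cells. Of the set's 3 measured genes 1, Ccl5, was at least 2-fold lower, and the set's summed ratio in Cd4 T cells was 0.667.

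In the sums over all members, 2150 genes had at least 30 UMIs over both libraries. Of these 111 (5.16%) were at least 2-fold higher with 1V209-Cho-Lip and 136 (6.33%) at least 2-fold lower, and the median ratio was -0.01 on the log2 scale. TMM scaling moved every ratio by -0.15 (log2), and the counts were then 80 higher and 203 lower. These shares are the background for the gene lists below.

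Ratios were ranked among genes with at least 50 UMIs and at least 0.25 times the CPM of all kept barcodes. The highest there included several genes that were found in many members. Some genes outside these limits, such as Socs1 and Ccl4 below, had higher ratios. Eif3f, a subunit of translation initiation factor 3, had 50 UMIs in 20 of 25 members and 11 UMIs in 10 of 75, a ratio of 12.4 (6.38 to 26.5). Il31ra, a receptor subunit for interleukin 31, had 144 UMIs in 21 members and 57 in 27, a ratio of 6.90 (5.05 to 9.55). Ndfip1, an activator of ubiquitin ligases that restrains T-cell activation, had 62 UMIs in 19 and 27 UMIs in 23, a ratio of 6.27 (3.93 to 10.3). Mir6236 had a ratio of 8.30, the RNA-binding protein gene Pcbp2 3.88 and Nebl 3.16. Most of these were high in Cd4 T cells of the same libraries too. The ratios there were 8.27 for Eif3f, 9.17 for Il31ra, 3.07 for Ndfip1, 5.20 for Mir6236, 2.66 for Pcbp2 and 1.76 for Nebl. B cells also had higher levels with 1V209-Cho-Lip, with Il31ra at 1444 and 159 CPM and Eif3f at 504 and 58.0 CPM. Ndfip1 stood there at 196 and 72.7 CPM, Mir6236 at 686 and 111, Pcbp2 at 507 and 186 and Nebl at 28.7 and 16.7 CPM. Nebl was lower in NK cells, at 27.8 and 53.2 CPM, and in Cd8 T cells, at 17.2 and 28.4 CPM. The high ratios of the other genes were thus not particular to T cells, and that of Nebl was not shared by all T cells.

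Within the segment groups the ratio of Il31ra was 8.90 (5.51 to 15) in Trdv4 cells and 4.56 (2.57 to 8.23) in Trdv5 cells. Ndfip1 stood at 6.57 (3.49 to 13.1) and 8.95 (3.64 to 25.1), and Eif3f at 14.8 (5.09 to 58.3) and 20.9 (6.19 to 110). Those 3 ratios were thus above 1 in both segment groups. In members with no Trac, Trbc1 or Trbc2 UMI, Il31ra stood lower, at 1.18 on the log2 scale against 2.79 in all members.

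Other high ratios rested on 1 cell. Without the cell with the most UMIs in each library, Chil3, a macrophage chitinase-like gene, went from 4.59 to 1.11, the metallothionein gene Mt1 from 4.10 to 0.759, the kinase Sgk1 from 3.47 to 0.260 and the scavenger receptor Olr1 from 3.19 to 1.49.

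Of the 10 lowest ratios under the same limits 5 were of genes of airway and alveolar lining cells. These were Sftpc, Scgb3a2, Scgb3a1, Scgb1a1 and Cbr2, with most UMIs of each in 1 PBS member. Sftpc, a surfactant gene, had 7 UMIs and 1204 UMIs, a ratio of 0.0159, or 0.353 without the top cells. The club-cell gene Scgb1a1 had 74 and 2155 UMIs, a ratio of 0.0938 that became 1.10. Scgb3a2 and Scgb3a1 had 1 UMI each against 94 and 60. Rarres2 had 4 and 120 UMIs, with 118 of the PBS UMIs in 1 cell, and went from 0.0911 to 2.73 without the top cells. Igfbp6 had 5 and 66 UMIs, with 65 of the PBS UMIs in 1 cell, and went from 0.207 to 8.20. Both later values rest on a few UMIs and settle no direction. Igfbp5 had no UMI against 115 in 2 PBS members. Cbr2, a carbonyl reductase of airway cells, was at 0.148, or 0.228 without the top cells. Sftpc and Cbr2 thus stayed over 2-fold lower without the top cells.

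Gbp2 and Thy1 were spread over more PBS members. Gbp2, an interferon-induced GTPase, had 4 UMIs in 4 of 25 members and 67 in 20 of 75, a ratio of 0.163 (0.0432 to 0.437) and 0.146 without the top cells. Thy1, a surface protein of T cells, had 4 UMIs in 2 members and 49 in 21, a ratio of 0.223 (0.0585 to 0.608). For both genes the treated side was 4 UMIs, and the intervals of the shares of cells overlapped between the libraries. In Cd4 T cells the ratios were 0.808 for Gbp2 and 1.26 for Thy1.

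**Figure D4:**
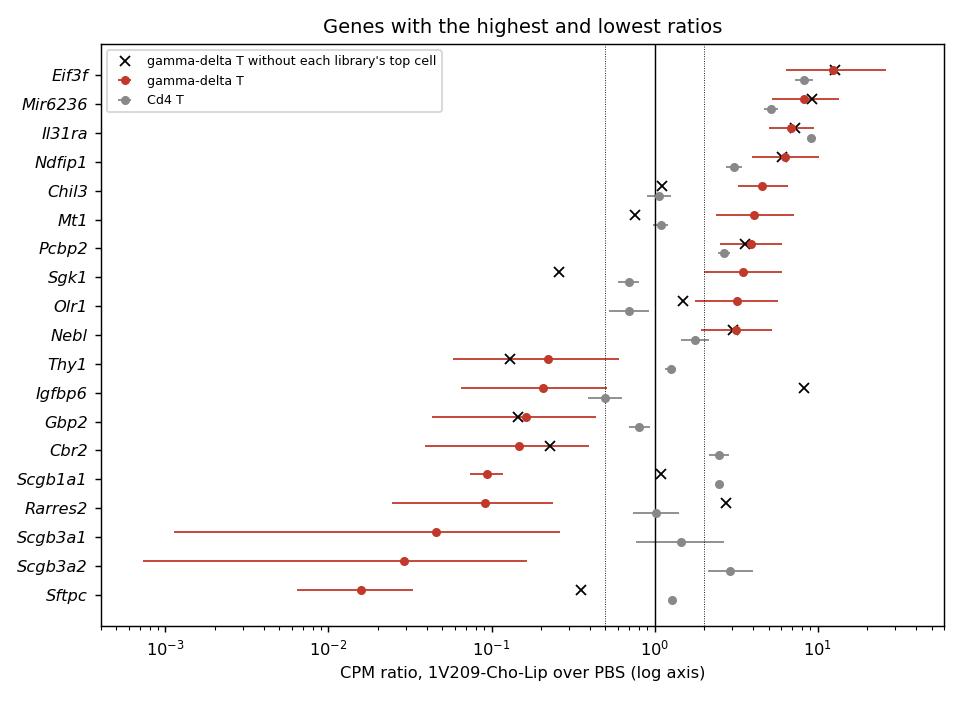
CPM ratio, 1V209-Cho-Lip over PBS (log axis), of the highest and lowest genes under the limits given in the text. Gamma-delta T cells are red and Cd4 T cells grey, with 95% counting intervals, and crosses are members without each library's top cell. Dotted lines mark 2-fold. Eif3f, Il31ra, Ndfip1 and Pcbp2 kept their place without the top cells, whereas Chil3, Sgk1, Scgb1a1 and Igfbp6 moved across or near 1. Igfbp5, with no UMI in the 1V209-Cho-Lip library, is left out.

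Il7r, Il23r, Il1r1, Scart1 and Scart2, receptor genes known from resident gamma-delta T cells, had ratios within 2-fold over all members. Il7r, the receptor for the survival factor interleukin 7, was at 1637 and 1406 CPM, giving a ratio of 1.16 (0.967 to 1.40). Il23r was at 366 and 338 CPM, giving a ratio of 1.08 (0.723 to 1.59), and Il1r1, the interleukin 1 receptor, at 193 and 211 CPM, giving a ratio of 0.911 (0.520 to 1.53). Il7r was at 0.869 (0.628 to 1.19) in Trdv4 cells and 1.52 (1.17 to 1.97) in Trdv5 cells. Scart1 had a ratio of 1.84 (1.45 to 2.31) and Scart2 of 0.824 (0.548 to 1.21). Within the segment groups Scart1 was at 1.40 (1.08 to 1.79) in Trdv4 cells and at 15 (5.62 to 50.5) in Trdv5 cells, where its 24 and 5 UMIs came from 4 and 1 cells. The galectin gene Lgals3 was at 1.22 (0.973 to 1.52), with 43 of the 119 treated UMIs in 1 cell with neither segment, and at 0.576 (0.373 to 0.864) in Trdv4 cells and 1.16 (0.797 to 1.67) in Trdv5 cells.

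Rora, an orphan nuclear receptor, had a ratio of 0.821 (0.606 to 1.10) and Maf one of 0.80 (0.383 to 1.55).

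The Il17a ratio was below 1 in members and above 1 in Cd4 T cells. Members had 34 UMIs in 8 of 25 cells (32.0%, 14.9 to 53.5%) and 175 UMIs in 28 of 75 cells (37.3%, 26.4 to 49.3%), a ratio of 0.531 (0.356 to 0.770). The intervals of these shares overlapped, and single cells held 14 of the 34 and 30 of the 175 UMIs. In Trdv4 cells the ratio was 0.317 (0.139 to 0.638) and in Trdv5 cells 0.776 (0.479 to 1.21). Among members with no Trac, Trbc1 or Trbc2 UMI its direction turned, to 0.67 on the log2 scale. Cd4 T cells had 223 UMIs in 11 of 487 cells and 8 UMIs in 4 of 999 cells, a ratio of 56.4, with 68 of the 223 UMIs in 1 cell. Il17f had 7 and 11 UMIs in members and 69 and 8 in Cd4 T cells.

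Other cytokine genes were sparse. Of 8 measured in the list, 2 were 2-fold higher and 1 lower. Ltb, lymphotoxin beta, had a ratio of 1.05 (0.782 to 1.41), and Areg, the tissue-repair factor amphiregulin, 0.794 (0.525 to 1.17). Areg was at 0.203 (0.0637 to 0.503) in Trdv4 cells, with 5 and 58 UMIs, and at 1.65 (1.02 to 2.64) in Trdv5 cells, with 29 and 55. The Areg intervals of the segment groups did not overlap, and in both groups single cells held a large part of the UMIs. The neutrophil attractant Cxcl2 was at 963 and 416 CPM, giving a ratio of 2.32 (1.76 to 3.05) that became 1.19 without the top cells, and its ratio in Cd4 T cells was 2.0. Ccl4 had 27 UMIs in 2 members and 4 UMIs in 4, a ratio of 18.4 that became 2.73. Il22 had 0 and 6 UMIs, and Ifng had 2 UMIs in 1 treated member and none with PBS.

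Type-1 genes gave few measured values: of 24 in the list, 6 had 30 UMIs, and 1 of them, Ccl5, was at least 2-fold lower, with a ratio of 0.256 (0.0906 to 0.589). Its 6 and 64 UMIs came from 1 and 4 members. Klrk1, the activating receptor NKG2D, was at 1.37 (0.836 to 2.19), or 3.13 (1.34 to 7.34) in Trdv5 cells, and Il2rb, an interleukin 2 and 15 receptor chain, at 0.985 (0.576 to 1.63). Ly6c2 was at 0.517 (0.194 to 1.17), Hopx at 0.881 and the kinase Txk at 0.841.

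Type I interferon-stimulated genes were the list with the most genes on the low side. Of 40 genes 10 were measured, and 5 of those were at least 2-fold lower and 0 higher, beside 6.33% lower among all genes, with a median of -1.03 (log2). Their summed level was 2677 and 4018 CPM, giving a ratio of 0.666 (0.582 to 0.760), against 0.807 in Cd4 T cells. Samhd1, which degrades nucleotides, was at 270 and 631 CPM, giving a ratio of 0.427 (0.276 to 0.639), with UMIs in 17 of 25 and 45 of 75 members. Ifitm3, which blocks viral entry, was at 0.474 (0.297 to 0.729), Ifi27l2a at 0.396 (0.231 to 0.644) and Ly6e at 0.373 (0.202 to 0.642). Slfn5 was at 0.420 (0.107 to 1.21). Of the 110 PBS UMIs of Ly6e 65 lay in members with neither segment, 30 of them in 1 cell, and its ratio was 0.787 (0.325 to 1.72) in Trdv4 cells and 0.522 (0.0985 to 1.79) in Trdv5 cells. In members with Trdv4 or Trdv5 together Ifitm3 was at -0.17 and Ly6e at -0.49 (log2), and without Trac, Trbc1 or Trbc2 UMIs Ifi27l2a was at -0.34 and Ly6e at -0.38, so none of these was then 2-fold lower.

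Not every gene of the list was low. Slfn2 was at 1.11 (0.759 to 1.61), Isg15, a ubiquitin-like modifier, at 0.865 (0.488 to 1.47) and Ifitm2 at 1.88 (1.01 to 3.45), which became 1.02 without the top cells. In Cd4 T cells Samhd1 stood at 1.01 and Ifi27l2a at 0.951, while Ly6e stood at 0.403, Ifitm3 at 0.555 and Bst2 at 0.434.

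Interferon-gamma targets and GTPases were low in part. Of 14 measured, 4 were at least 2-fold lower and 0 higher, with a median of -0.31. Besides Gbp2 these were Gbp4 at 0.317 (0.132 to 0.660), Igtp at 0.353 (0.0904 to 0.997) and Tapbp, a peptide-loading factor, at 0.417 (0.200 to 0.792). The class I heavy chains lay near 1, with H2-D1 at 1.14 (0.992 to 1.30) and H2-K1 at 1.16 (0.994 to 1.34), as did B2m at 0.884 (0.749 to 1.04) and the immunoproteasome gene Psmb8 at 0.745 (0.509 to 1.07).

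**Figure D5:**
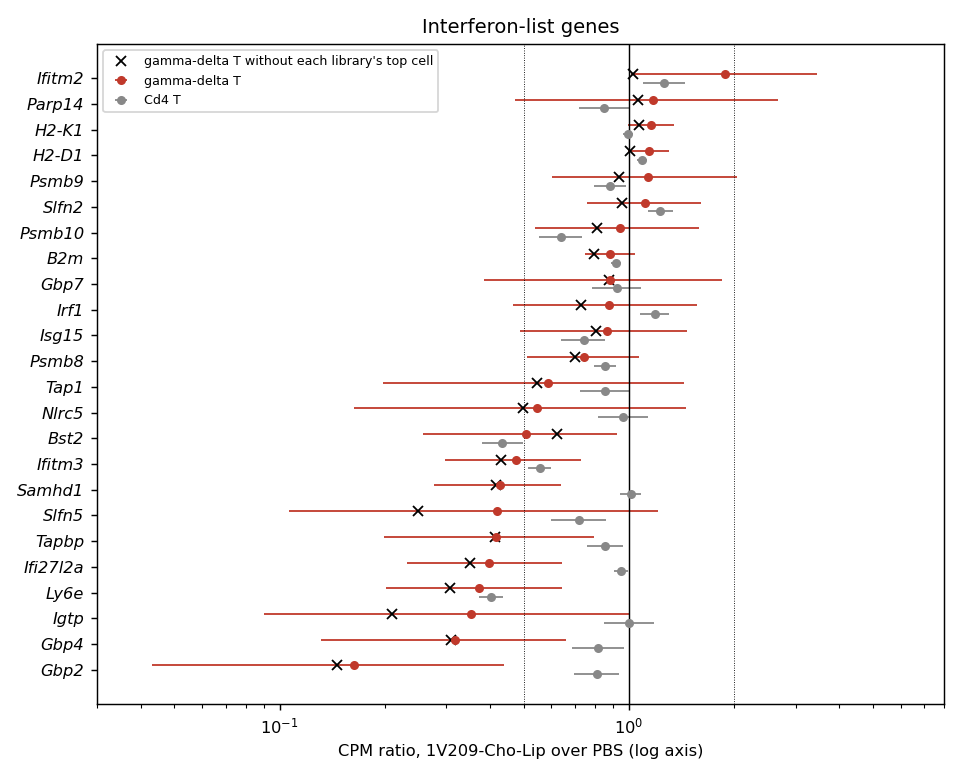
CPM ratio, 1V209-Cho-Lip over PBS (log axis), of measured genes of the type I interferon and interferon-gamma lists in gamma-delta T cells (red) and Cd4 T cells (grey), with 95% counting intervals and crosses for members without each library's top cell. Dotted lines mark 2-fold. Gbp2, Gbp4, Ly6e, Ifi27l2a, Tapbp and Samhd1 lay below 0.5, while H2-K1, H2-D1 and B2m lay near 1.

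Of 9 measured SOCS and JAK-STAT genes 1 was 2-fold higher and 2 lower. Socs1, a feedback inhibitor of cytokine and interferon signalling, had 26 UMIs in 12 of 25 members (48.0%, 27.8 to 68.7%) and 5 UMIs in 4 of 75 (5.33%, 1.47 to 13.1%), a ratio of 14.2 (5.37 to 47.4). The intervals of these shares did not overlap. Socs1 was found in 7 of 11 and 0 of 29 Trdv4 cells, the latter allowing a share of cells with a UMI of up to 10.3%, and in 5 of 9 and 1 of 24 Trdv5 cells. Without Trac, Trbc1 or Trbc2 UMIs Socs1 was at 1.14 against 3.83 in all members (log2). Its ratio in Cd4 T cells was 12.0. Socs3 stood at 0.443 (0.153 to 1.06) and Stat6 at 0.455 (0.157 to 1.09), and these were the 2 low genes. Stat3 was at 0.856, Jak1 at 0.699 and the kinase Pim1 at 1.68 (1.20 to 2.34).

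Immediate-early genes, which respond within minutes to stimulation or to tissue handling, had 3 of 24 at least 2-fold higher and 1 lower, with a median of 0.31. Dusp1, a phosphatase that ends MAP kinase signals, was at 722 and 159 CPM, giving a ratio of 4.55 (3.11 to 6.75) beside 4.74 in Cd4 T cells. Ier3 was at 6.56 (3.02 to 15.4) and Ier5 at 3.12 (1.43 to 6.91), and Rgs2 at 0.442 (0.243 to 0.753). Junb was at 1.69 (1.48 to 1.94), Btg2 at 1.03, Fos at 0.817 (0.638 to 1.04) and Zfp36l1 at 0.802. The genes of the list thus differed in direction.

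Genes of homing and residence had 4 of 17 at least 2-fold lower, 1 higher and a median of -0.08. Itga4, an integrin chain, was at 0.347 (0.144 to 0.726), Ccr7 at 0.333 (0.103 to 0.843), Ly6a at 0.408 (0.209 to 0.735) and S1pr1, the exit receptor that senses sphingosine phosphate, at 0.471 (0.215 to 0.930). Of the Ccr7 UMIs 4 of 5 and 38 of 41 lay in members with neither segment, and Ccr7 was at -0.17 (log2) in the others. Of the S1pr1 UMIs 5 of 10 and 28 of 58 lay in members with neither segment. Ly6a ran the other way in Trdv4 cells, with 12 and 6 UMIs or 261 and 55.3 CPM, while Trdv5 cells had 0 and 39 UMIs and those with neither segment 1 and 42. Itga4 was at -0.28 (log2) without called doublets. Itgb1 was at 2.01 (1.32 to 3.05). Cxcr6, a lung residence receptor, was at 1.13 (0.819 to 1.55), Selplg at 0.945 and Cd44 at 0.745 (0.524 to 1.04).

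Among 12 measured co-stimulatory and inhibitory receptors Pdcd1 was the 1 at least 2-fold higher. It had 61 UMIs in 15 of 25 members (60%, 38.7 to 78.9%) and 79 in 23 of 75 (30.7%, 20.5 to 42.4%), a ratio of 2.11 (1.49 to 2.98), or 1.91 without the top cells. The intervals of these shares overlapped. In Trdv4 cells the ratio was 1.66 (1.13 to 2.42) and in Trdv5 cells 2.69 (0.746 to 9.33). Its ratio in Cd4 T cells was 0.731. Thy1 and Cd28, the latter at 0.414 (0.126 to 1.07), were at least 2-fold lower. Icos, a co-stimulatory receptor, was at 0.867 (0.638 to 1.17) and Cd52 at 0.863 (0.700 to 1.06).

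Cytokine receptors had 1 of 15 at least 2-fold lower and 0 higher. Ifngr1, a chain of the interferon-gamma receptor, was at 1309.6 and 804 CPM, giving a ratio of 1.63 (1.31 to 2.02), Il18r1 at 0.918 (0.631 to 1.31) and Il2rg at 0.706 (0.460 to 1.06). The low gene was the decoy receptor Il1r2 at 0.420, with UMIs in 2 and 4 members. Transcription factors had 1 of 22 higher and 0 lower. Id2, which antagonises E proteins, was at 2.57 (1.70 to 3.89) and 1.45 without the top cells. Ikzf3 was at 1.41 (1.11 to 1.78), Runx1 at 0.854 and Ets1 at 0.933.

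Stress chaperones had 0 of 9 past 2-fold, a median of -0.41 and a summed ratio of 0.760 (0.675 to 0.854), beside 0.705 in Cd4 T cells. Hspa5, the chaperone of the endoplasmic reticulum, was at 520 and 959 CPM, giving a ratio of 0.542 (0.397 to 0.729), and Hsp90ab1 at 0.754 (0.604 to 0.934). NF-kB targets and regulators had 1 of 13 higher and 0 lower, with a summed ratio of 1.24 (1.11 to 1.37). Tnfaip3, an inhibitor of NF-kB signalling, was at 1.58 (1.23 to 2.01), Nfkbia at 0.962 (0.764 to 1.20) and Bcl2a1b, a survival gene, at 2.65 (1.56 to 4.48). Bcl2a1b and Bcl2a1d, at 1.37, are close paralogs whose reads may be split.

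Glucocorticoid-responsive genes had 2 of 9 higher, Dusp1 and Sgk1, and a summed ratio of 1.44 (1.30 to 1.59), beside 1.41 in Cd4 T cells. Txnip was at 1.72 (1.20 to 2.46) and Tsc22d3, a classic target, at 1.19 (0.764 to 1.81). Cebpd, with too few UMIs to be measured, had 23 UMIs in 4 members and 3 UMIs in 3. Survival genes had 1 of 10 higher, again Bcl2a1b, with Gimap3 at 1.45 (0.865 to 2.38) and Gimap4 at 0.512 (0.221 to 1.06). Metabolism genes had 1 of 10 higher, Hk2 at 2.13 (0.978 to 4.52), with Cox4i1 at 1.12 and Ldha at 1.13. Cell-cycle genes had 0 of 4 past 2-fold, and Mki67, a marker of dividing cells, had 1 and 6 UMIs.

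Tlr7, the receptor for the agonist, was hardly found in members, with 0 and 2 UMIs, and its adaptor Myd88 with 1 and 4. Irf7 had 10 and 19 UMIs. The 2 measured genes of that pathway, Irak2 at 0.970 (0.631 to 1.46) and the chaperone Hsp90b1 at 0.868 (0.661 to 1.13), lay within 2-fold.

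Receptor and CD3 genes, part of which chose the members, had 0 of 11 past 2-fold. Trdc stood at 424 and 483 CPM, Cd3e at 1290.4 and 1036 CPM and Cd3g at 982 and 1329 CPM.

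RNA of other cells was uneven between the libraries, mostly through few members. Summed neutrophil markers stood at 3062 and 2308 CPM, in 25 of 25 and 32 of 75 members, a ratio of 1.33 (1.16 to 1.52). S100a9 was found in 20 and 19 members and its ratio went from 1.40 to 0.736 without the top cells. Macrophage and monocyte markers stood at 3351 and 1854 CPM in 12 and 31 members, and Lyz2 went from 1.40 to 0.183 without the top cells. Alveolar type 2 markers were at 96.3 and 4895 CPM in 6 and 29 members, with 4 of 4 measured genes lower. Endothelial markers were at 809 and 800 CPM, NK markers at 953 and 624 CPM in 8 and 21 members, B-cell markers at 38.5 and 52.9 CPM, and group 2 innate lymphoid markers at 404 and 687 CPM. Hbb-bs, a haemoglobin gene, had 0 and 58 UMIs. What part such RNA had in the other ratios was not tested.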

How the data were processed

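The 2 libraries of lung, 1 per group, were made on the 10x Genomics platform. The deposited files hold raw UMI counts per gene and barcode, made by the authors with Cell Ranger 9.0.1, per the file headers, on mm10, per the submitters' processing notes. The annotation release and the library chemistry were not given in the sources used here. GENCODE vM21, which held 52081 of the 55357 gene identifiers, supplied names, positions and sequences.

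Quality limits were 500 UMIs, 200 genes and 20% mitochondrial UMIs, which 13720 of 13740 and 14560 of 14622 barcodes met. UMIs were summed over members and scaled to CPM, and ratios carry exact conditional binomial intervals. Shares carry exact Clopper-Pearson intervals. A floor of 3 counts stood in for 0. Members, lists and comparison classes were chosen with earlier results of these data known.

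Named genes follow a rule. It took the 10 largest and the 10 smallest ratios over genes that had 50 UMIs or more in all members and at least 0.25 times the CPM of all kept barcodes. Mitochondrial, ribosomal protein, haemoglobin, antibody, receptor and predicted genes were left out. Each of 29 lists gave up to 4 members by UMI number, and its extremes in ratio. Some planned results and list genes are not reported here and were left out of the list counts. Other genes named were chosen after their values were seen. Alternatives changed the member rule, thinning, scaling (median of ratios, TMM from edgeR 4.0.16) and minimum counts. Scrublet in Scanpy 1.11.5 used a doublet rate of 0.8% per 1000 barcodes. The interval code was tested on simulated data.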

Additional observations from a re-analysis of the deposited data

How the results depend on the processing

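The 3 share ratios moved beyond their counting intervals under 1 setting, members with no UMI of Trac, Trbc1 or Trbc2, where they were 0.186, 0.258 and 0.404 in the order given above. Genes at least 2-fold higher numbered 67 with at least 2 Trdc UMIs, 59 without Trac, Trbc1 or Trbc2 UMIs, 48 in members with Trdv4 or Trdv5, 217 at a minimum of 20 UMIs and 11 at 100, and genes at least 2-fold lower numbered 76, 293 and 15 at 2 Trdc UMIs, 20 UMIs and 100 UMIs. Fewer or more genes entered these counts, 820 to 1461 with the changed member rules and 3254 and 510 with the changed minimums. Scaling by TMM put 28.3% of the genes past 2-fold on the higher side, against 44.9% as reported. Type-1 detection was 48.0% and 41.3% at 2 UMIs over the set and 40.0% in both libraries after thinning.

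Directions turned for these genes (log2). With 2 Trdc UMIs they were Rarres2 2.37, Igfbp6 2.37, Ccl5 3.95, Egr1 -0.36 and Bst2 0.37. Without Trac, Trbc1 or Trbc2 UMIs, 7 and 40 members, they were Chil3 -2.48, Mt1 -1.08, Sgk1 -1.08, Cd3g 0.016, Il17a 0.67, Cxcl2 -1.11, Itgal 0.49, Id2 -0.15, S100a9 -0.92 and Lyz2 -2.13. In members with Trdv4 or Trdv5 they were Chil3 -0.85, Mt1 -0.97, Sgk1 -1.75, Olr1 -0.52, Rarres2 2.42, Tyrobp -0.50, Lyz2 -2.75, Cd68 -2.49 and Mrc1 -1.22. Without each library's top cell they were Mt1 -0.40, Sgk1 -1.94, Rarres2 1.45, Scgb1a1 0.14, Igfbp6 3.04, S100a9 -0.44, Tyrobp -0.40, Lyz2 -2.45 and Cd68 -2.46. Without called doublets they were Scgb1a1 0.19 and G0s2 3.43, and averaging CPM over cells Lyz2 was -0.018. The Ccl5 value with 2 Trdc UMIs rests on 6 UMIs in 1 treated cell and 1 UMI in 1 PBS cell. Rarres2 and Igfbp6 had no more than 4 and 5 treated UMIs under any setting. Many other values moved beyond their intervals without turning, most often, for 78 of 215 genes, among members with no Trac, Trbc1 or Trbc2 UMI. The cause was not tested. The settings on Trdv4 or Trdv5, top cells and shared barcodes were chosen after seeing the data. No paired analysis was possible because each group was 1 library, and no library could be left out for the same reason.

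With 25 members the 1V209-Cho-Lip sums were small: 1 UMI there was worth 9.63 CPM.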
